A study of Mus musculus with 2 samples.

Results

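The cytosolic RNA and DNA sensors were taken as 10 genes by symbol (Ifih1, Ddx58, Dhx58, Mavs, Tlr3, Zbp1, Eif2ak2, Sting1, Cgas and Cmpk2), and every probe set assigned to 1 of these genes alone was used. They accounted for 22 of the 45101 probe sets and for 10 of 18194 named genes. The RNA came from mouse cell lines labelled as endothelial: SVEC4-10, made from an axillary lymph node, and MS-1, made from pancreatic microvessels. SVEC4-10 was grown in DMEM with 10% FCS and MS-1 in DMEM with 5% FCS, so the serum and the line cannot be told apart. Both were taken at confluence after 3 to 5 days in flasks, untreated, and both are lines immortalised with SV40 large T antigen. There was 1 Affymetrix array of 1 culture per line, so the differences are described by size, without replicates or tests.

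Cells recognise viral nucleic acid with a small number of dedicated proteins. RIG-I (Ddx58) and MDA5 (Ifih1) are helicases that bind double-stranded RNA in the cytosol and pass the signal to MAVS on the mitochondrial membrane, while LGP2 (Dhx58) lacks the signalling domain and tunes both of them. PKR (Eif2ak2) binds the same kind of RNA and halts translation, ZBP1 binds nucleic acid in the Z conformation, and cGAS binds DNA and makes the second messenger that activates STING. TLR3 senses double-stranded RNA in endosomes and CMPK2 is a mitochondrial nucleotide kinase, so these are a membrane receptor and an enzyme of the same response and not cytosolic sensors in the strict sense. Many of these genes are themselves induced by interferon, whose signal reaches them through a promoter element, the ISRE, that is bound by STAT and IRF factors.

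Promoter windows of 250 bases before to 50 bases after the gene start, from RefSeq on GRCm38.p6, matched 7 of the 10 genes. Dhx58, Zbp1 and Sting1 had no window. Each window was searched on both strands for the ISRE core (GAAA, any 2 bases, then GAAA) and for the GAS core (TTC, any 3 bases, then GAA), and matches of the 2 motifs did not overlap in the windows shown. The windows of Ifih1 and Eif2ak2 are shown because these genes were the sensors with a window that were at least 2-fold higher in SVEC4-10. Those of Ddx58, which has an ISRE match but a smaller ratio, and Mavs, which has none, are shown for contrast. Capitals mark the motif matches, and all 4 read 5′ to 3′ on the strand of the gene.
Ifih1 (chr2:62646206-62646505, minus strand): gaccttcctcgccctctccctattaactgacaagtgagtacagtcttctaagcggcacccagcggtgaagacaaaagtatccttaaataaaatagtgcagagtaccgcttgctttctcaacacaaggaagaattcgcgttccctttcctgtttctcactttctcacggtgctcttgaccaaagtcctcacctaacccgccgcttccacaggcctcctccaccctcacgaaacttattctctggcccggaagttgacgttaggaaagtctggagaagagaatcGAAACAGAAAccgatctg
Eif2ak2 (chr17:78882523-78882822, minus strand): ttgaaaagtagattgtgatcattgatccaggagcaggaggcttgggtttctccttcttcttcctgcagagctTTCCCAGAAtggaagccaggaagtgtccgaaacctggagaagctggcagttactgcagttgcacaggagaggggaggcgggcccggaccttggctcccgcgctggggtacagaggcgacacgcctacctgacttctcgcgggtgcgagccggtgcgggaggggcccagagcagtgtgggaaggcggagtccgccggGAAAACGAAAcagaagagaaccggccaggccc
Ddx58 (chr4:40239776-40240075, minus strand): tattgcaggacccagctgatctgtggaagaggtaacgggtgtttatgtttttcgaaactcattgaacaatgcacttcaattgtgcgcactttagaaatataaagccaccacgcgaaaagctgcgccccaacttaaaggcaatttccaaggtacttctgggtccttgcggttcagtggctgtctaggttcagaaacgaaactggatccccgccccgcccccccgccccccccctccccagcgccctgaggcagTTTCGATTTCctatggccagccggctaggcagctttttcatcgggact
Mavs (chr2:131233813-131234112, plus strand): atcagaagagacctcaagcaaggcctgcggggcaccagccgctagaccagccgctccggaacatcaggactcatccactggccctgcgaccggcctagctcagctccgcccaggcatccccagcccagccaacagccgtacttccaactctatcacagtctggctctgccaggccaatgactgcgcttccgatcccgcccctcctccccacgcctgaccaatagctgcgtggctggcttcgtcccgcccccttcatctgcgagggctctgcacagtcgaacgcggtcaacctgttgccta

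An ISRE core was found in 3 of the 7 windows. The Ifih1 match, GAAACAGAAA, began 33 bases into the transcribed part and the Eif2ak2 match, GAAAACGAAA, 19 bases into it, where base 1 is the gene start. In Ddx58 the match lay on the opposite strand and its first base, in the direction of the gene, was base 3. Of all 32851 windows in the same table, 1131 (3.44%) held this motif. The GAS core was found in 1 of the 7 windows, that of Eif2ak2, 178 bases before the start, against 8.30% of all windows. The windows of Mavs, Tlr3, Cgas and Cmpk2 held neither motif. A match of letters describes the window and is not evidence of binding.

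Signals are linear probe set intensities in arbitrary array units. Background was taken from 129 probe sets of odorant, pheromone, taste receptor and hair keratin-associated genes and lay at 17.6 for the SVEC4-10 hybridisation and 16.3 for MS-1. Ratios are log2 of SVEC4-10 over MS-1, with any signal below background raised to it. Such a ratio bounds the difference from below where the other array is well above background. Because the 2 backgrounds differ, the sign turned for 148 of the 12584 measured genes near background and for 0 of the 10 sensors. The error of a log2 ratio, estimated from the disagreement between probe sets of one gene, was 0.59 over 6112 genes, with 0.76 for the dimmest 2038 and 0.41 for the brightest 2037. It holds no variation between cultures. The spiked-in poly-A controls (21 probe sets, above background on both arrays) were 1.46-fold higher in SVEC4-10, and scaling to them would lower every log2 ratio by 0.54. The hybridisation controls (18 probe sets) had a fold of 0.95 in SVEC4-10 over MS-1. Which type of control gives the better scale was not tested.

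The array labelled SVEC4-10 lacked most defining markers of endothelium. Of 12 endothelial markers, 3 were above background in SVEC4-10 and 12 in MS-1, with summed signals of 209 in SVEC4-10 and 31766 in MS-1. Pecam1 was below background in SVEC4-10 and had a signal of 4777 in MS-1. Of 10 fibroblast and mesenchymal markers, 9 were above background in SVEC4-10 and 2 in MS-1, with summed signals of 34363 in SVEC4-10 and 131 in MS-1 over 9 genes. Dcn had a signal of 7363 in SVEC4-10 and was below background in MS-1. Of 11 leukocyte markers, 3 were above background in SVEC4-10 and 5 in MS-1, with summed signals of 247 in SVEC4-10 and 185 in MS-1 over 7 genes. Cd14 alone gave 160.0 of the sum in SVEC4-10 and was below background in MS-1, whereas the median log2 ratio of the 7 genes was -0.38. Ptprc, the common leukocyte antigen, was below background on both. The sensor ratios were measured between these same 2 arrays, and the part of the mesenchymal and endothelial difference in them was not tested.

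Signal above background was seen for all 10 genes in SVEC4-10 and for 8 in MS-1, by the probe set used, against 89% of measured genes in SVEC4-10 and 91.1% in MS-1. At least 2-fold higher signal in SVEC4-10 was found for 4 of them (Zbp1, Dhx58, Ifih1 and Eif2ak2), against 15.1% of the 12584 genes measured. In MS-1, 0 of the 10 were at least 2-fold higher, against 12.1% of all measured genes, and 6 were within 2-fold, against 72.8%. A 4-fold difference was reached by 3 of them, all higher in SVEC4-10, against 5.71% of all genes. None reached it towards MS-1 (0 of 10, against 4.24%). The median log2 ratio of the 10 was 0.62, and that of all measured genes 0.015. With scaling to the poly-A controls, the same 4 genes were at least 2-fold higher in SVEC4-10, against 8.41% of all measured genes. In that setting 0 of the 10 were at least 2-fold higher in MS-1, against 26.7%. Then 4 of the 10 genes lay below 0 in place of 1, and the median log2 ratio of all measured genes was -0.53. In bulk RNA, fewer cells that express a gene and less RNA per cell cannot be told apart.

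**Figure D1:**
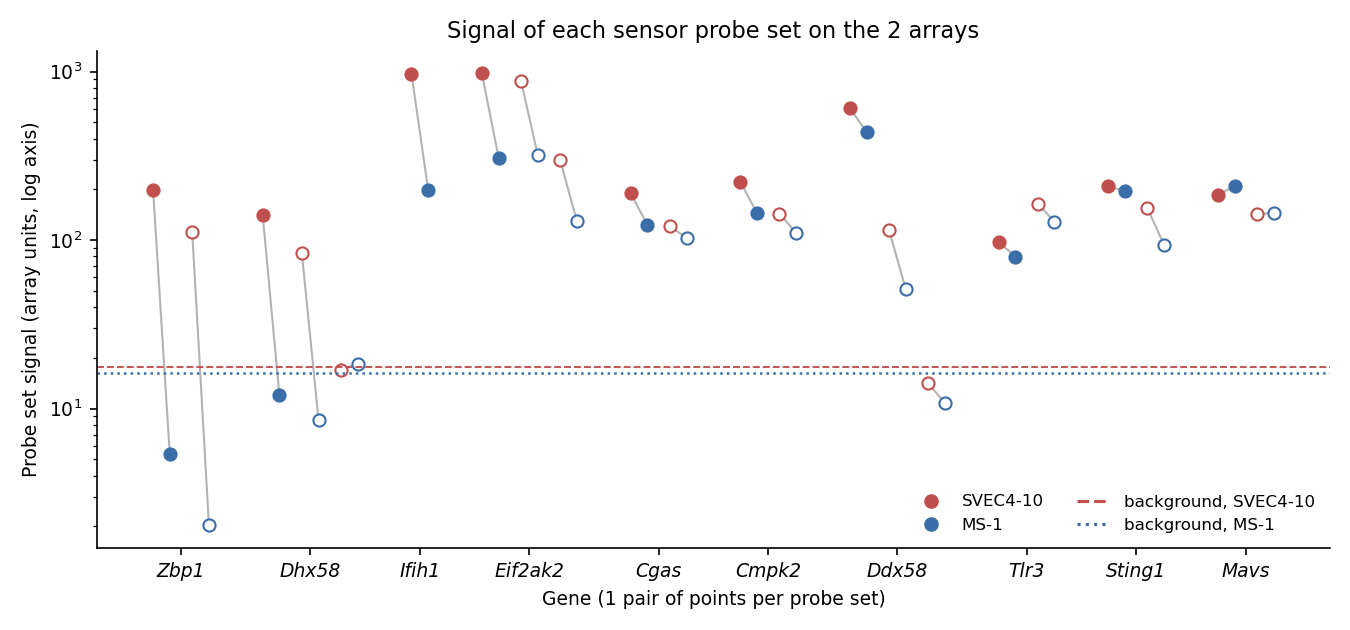
Signal of the 22 probe sets of the 10 genes (log axis, array units) for SVEC4-10 (red, left point of each pair) and MS-1 (blue, right point), with the background of each array as a line. Filled points are the probe set that represents the gene and open points the others. Both Zbp1 probe sets and 2 of the 3 of Dhx58 lie above background in SVEC4-10 and below it in MS-1, whereas the pairs of Mavs and Tlr3 stay nearly level.

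Among the RNA helicases, Ifih1, which encodes MDA5, the receptor for long double-stranded RNA, had a signal of 972 in SVEC4-10 and 199 in MS-1. This was a 4.88-fold difference (log2 ratio 2.29), 3.85 times the error, and 4.72% of all measured genes had a higher ratio. Ifih1 had a single probe set, so its ratio could not be compared within the gene. The gene was well above background on both arrays.

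Ddx58, which encodes RIG-I, the receptor for short RNA with a 5′ triphosphate end, had signals of 606 in SVEC4-10 and 437 in MS-1 at its brightest probe set. The log2 ratio of 0.47 was below the error over all genes (0.59) and above that of bright genes (0.41). A second, dimmer probe set read 115 in SVEC4-10 and 51.1 in MS-1, a log2 ratio of 1.17, and the dimmest was below background on both. RIG-I RNA was therefore detected in both lines, and its ratio lay on either side of 2-fold depending on the probe set. Scaled to the poly-A controls, the ratio of the brightest probe set was -0.072.

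Dhx58, which encodes LGP2, had a signal of 141 in SVEC4-10 and 12.1, below background, in MS-1. The difference was at least 8.67-fold (log2 ratio at least 3.12). A second probe set read 84.0 in SVEC4-10 and 8.57 in MS-1, at least 5.15-fold apart. The dimmest did not show the difference, with 16.9 in SVEC4-10 and 18.5 in MS-1, both close to background. The call for LGP2 thus rests on 2 of its 3 probe sets.

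Mavs, the adaptor through which RIG-I and MDA5 signal, had signals of 186 in SVEC4-10 and 209 in MS-1, a log2 ratio of -0.17. Its second probe set read 142 in SVEC4-10 and 145 in MS-1 (log2 ratio -0.032). The 2 probe sets differed by 0.14 log2 units, and both ratios are inside the error. By the probe sets used, Mavs was the only one of the 10 genes with a ratio below 0, and 50.8% of all measured genes had a ratio above 0.

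PKR, TLR3 and ZBP1 differed in the size of their ratios. Eif2ak2, which encodes the kinase PKR, had signals of 976 in SVEC4-10 and 308 in MS-1, a 3.17-fold difference (log2 ratio 1.66). Its second probe set read 878 in SVEC4-10 and 320.2 in MS-1, 2.74-fold apart. Its dimmest read 298 in SVEC4-10 and 130 in MS-1, 2.30-fold apart. All 3 probe sets of PKR were above background on both arrays and gave at least 2-fold higher signal in SVEC4-10. The ratio of its brightest probe set was 2.80 times the error.

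Tlr3, the endosomal receptor for double-stranded RNA, had signals of 97.6 in SVEC4-10 and 79.8 in MS-1 (log2 ratio 0.29). The probe set of the less specific class read 165 in SVEC4-10 and 128 in MS-1 (log2 ratio 0.36). The 2 probe sets differed by 0.069 log2 units, and both ratios lay inside the error. Scaled to the poly-A controls the first became -0.25.

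Zbp1, which binds Z-form nucleic acid and can start necroptosis, was above background in SVEC4-10 only. Its brightest probe set, of the _a_at class, had a signal of 199 in SVEC4-10 and 5.36, below background, in MS-1. These were at least 12.2-fold apart (log2 ratio at least 3.61). The other probe set read 112 in SVEC4-10 and 2.03 in MS-1, at least 6.88-fold apart. Both probe sets were below background in MS-1 and above it in SVEC4-10. Their ratios, like that of Dhx58, are bounds set by the background and have no order. Zbp1 and Dhx58 were the 2 of 10 sensors above background in SVEC4-10 only by the probe set used, against 8.94% of all measured genes.

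**Figure D2:**
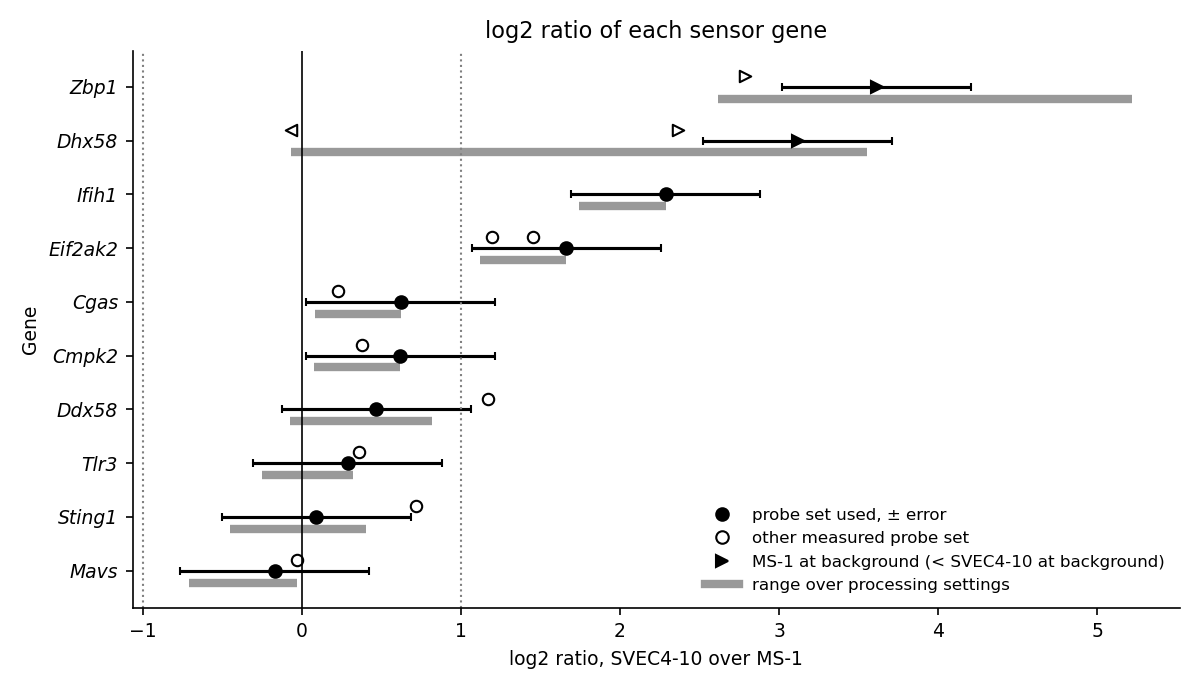
log2 ratio of SVEC4-10 over MS-1 for each gene, with the error of 0.59 as a horizontal bar on the probe set used (filled) and other measured probe sets open. Triangles mark ratios with 1 array at background, grey bars the range over the processing settings, and dotted lines 2-fold. Ifih1, Eif2ak2 and Zbp1 stay to the right of 2-fold in their whole range, Dhx58 does not, and the other 6 genes stay below 1 in theirs.

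In the DNA branch neither gene reached 2-fold. Cgas, the DNA-binding enzyme that makes cyclic GMP-AMP, had signals of 190 in SVEC4-10 and 123 in MS-1, a log2 ratio of 0.62. Its second probe set read 121 in SVEC4-10 and 103 in MS-1 (log2 ratio 0.23). Both values lean towards SVEC4-10, and the first exceeded the error by a factor of 1.05. With poly-A scaling it was 0.081.

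Sting1, which encodes the receptor for cyclic GMP-AMP on the endoplasmic reticulum, had signals of 208 in SVEC4-10 and 196 in MS-1 (log2 ratio 0.091). A probe set of the less specific class read 154 in SVEC4-10 and 93.7 in MS-1, a log2 ratio of 0.72. The 2 probe sets lay 0.63 log2 units apart, and the error of such a difference is larger than that of a single ratio (0.59). Neither reached 2-fold, and RNA of both cGAS and STING was above background in both lines.

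Cmpk2, the mitochondrial nucleotide kinase, had signals of 222 in SVEC4-10 and 145 in MS-1 (log2 ratio 0.62). Its second probe set read 144 in SVEC4-10 and 110 in MS-1 (log2 ratio 0.38). Cmpk2 is known as an interferon-induced gene, and a neighbour on the chromosome, with 0 annotated genes between them, is Rsad2, which encodes the antiviral enzyme viperin. Rsad2 had signals of 747 in SVEC4-10 and 543 in MS-1, a log2 ratio of 0.46, and the lowest of its 3 probe sets gave -0.30. Both neighbours were detected on both arrays, and neither reached 2-fold.

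**Figure D3:**
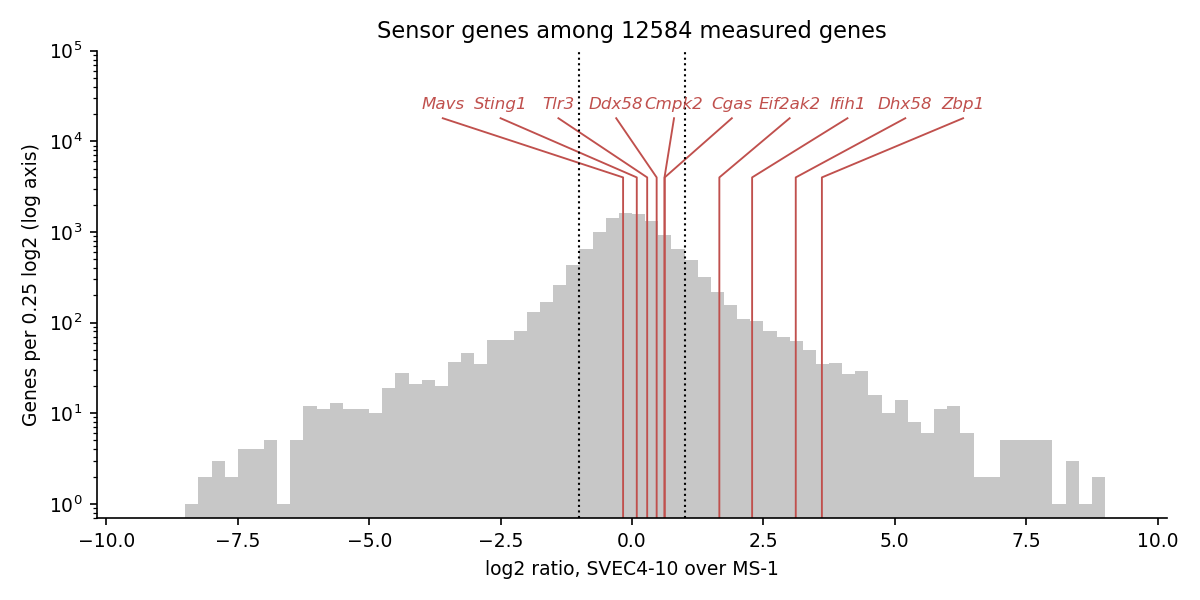
Histogram of the log2 ratio of SVEC4-10 over MS-1 for all 12584 measured genes (log count axis), with the 10 sensors as red lines and 2-fold as dotted lines. Mavs to Cgas lie in the body of the distribution between -0.17 and 0.62, and Eif2ak2, Ifih1, Dhx58 and Zbp1 lie in its right flank from 1.66 to 3.61, where Dhx58 and Zbp1 are lower bounds.

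Among the sensors, probe sets of the same gene mostly had the same sign. Of 22 probe sets, 21 were above background on at least 1 array, and 18 of these had a ratio above 0 and 3 below. At least 2-fold higher signal in SVEC4-10 was found at 9 of the 21, against 14.5% of the 23087 measured probe sets with 1 gene, and in MS-1 at 0, against 11.9%. Probe sets of one gene read the same RNA, and 3 of the 9 belong to Eif2ak2. Of the 9 genes with several measured probe sets, 8 had them all on the same side of 0, the exception being Dhx58. By gene, 50.8% of all measured genes had a ratio above 0. The agreement within genes was not counted over all genes, so it describes these 9 genes only.

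The genes that act with the sensors were taken from 8 lists of pathway members. Of 111 such genes found, 101 were measured, 14 were at least 2-fold higher in SVEC4-10, 8 in MS-1 and 79 in neither, and their median log2 ratio was -0.043. With poly-A scaling these counts were 9 in SVEC4-10 and 28 in MS-1, and over all genes the shares were 8.41% higher in SVEC4-10 and 26.7% higher in MS-1. In the main setting, 15.1% of all measured genes were at least 2-fold higher in SVEC4-10 and 12.1% in MS-1. The share of pathway genes was near the first and below the second. With poly-A scaling it was near that of all genes in either direction. The same shares of all genes apply to each list below.

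In RIG-I-like receptor signalling, 2 of 23 measured genes were at least 2-fold higher in SVEC4-10, 3 in MS-1 and 18 in neither (1 in SVEC4-10 and 7 in MS-1 with poly-A scaling). Irf7, the factor that switches on type I interferon genes and is itself interferon-induced, had signals of 581 in SVEC4-10 and 58.7 in MS-1, 9.88-fold apart. Traf2, a signalling adaptor, was 2.67-fold higher in SVEC4-10, with a log2 ratio of 0.87 after poly-A scaling. Tbkbp1, an adaptor of the kinase TBK1, was below background in SVEC4-10 and had a signal of 404 in MS-1, at least 22.9-fold higher there, and its other probe set gave a log2 ratio of -2.93. Rnf125, a ligase that marks RIG-I and MDA5 for breakdown, had signals of 17.8 in SVEC4-10, just above background, and 79.1 in MS-1 at its single probe set. Its log2 ratio was -2.15, and -1.17 with background doubled. Cyld, a deubiquitinase named after its value was seen, had a log2 ratio of -1.17, and its 3 probe sets ranged from -1.70 to -0.18.

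Of the kinases and factors that act after MAVS and STING, Tbk1, Ikbke and Irf3 were within 2-fold, unlike Irf7. Tbk1 had a log2 ratio of 0.58, Ikbke, the related kinase, -0.37, and Irf3, the factor they phosphorylate, -0.48 (-1.02 with poly-A scaling). The 3 measured probe sets of Irf3 ranged from -0.48 to -0.037. Trim25, a ligase that activates RIG-I, had a log2 ratio of 0.50, but its 3 probe sets ranged from -0.49 to 0.50. By contrast, Stat2 and Irf9, the STAT and IRF partners of the factor that binds the ISRE, were higher in SVEC4-10. Stat2 had signals of 466 in SVEC4-10 and 83.9 in MS-1, 5.55-fold apart. Irf9 had signals of 646 in SVEC4-10 and 197 in MS-1, 3.27-fold apart.

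In the list of DNA sensing and STING control, 1 of 15 measured genes was at least 2-fold higher in SVEC4-10, 0 in MS-1 and 14 in neither (1 in SVEC4-10 and 1 in MS-1 with poly-A scaling). That gene was Samhd1, which breaks down deoxynucleotides, with signals of 614 in SVEC4-10 and 179 in MS-1. Its 4 measured probe sets ranged from -0.36 to 1.78, so the mean over probe sets did not reach 2-fold. Ulk1, a kinase that phosphorylates STING, and Dnase2a, the lysosomal nuclease, had log2 ratios of 0.89 and 0.82. Banf1, a chromatin protein that keeps cGAS off nuclear DNA, had a log2 ratio of -0.81.

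For TLR3, 1 of 8 measured genes was at least 2-fold higher in SVEC4-10 and 1 in MS-1. Cd14, a co-receptor for several ligands, had a signal of 160.0 in SVEC4-10 and was below background in MS-1, at least 9.82-fold apart. Rftn1, raftlin, which in human cells helps to take up the RNA that TLR3 senses, had signals of 294 in SVEC4-10 and 661 in MS-1. Ticam1, the adaptor TRIF that TLR3 requires, had signals of 73.0 in SVEC4-10 and 97.8 in MS-1 (log2 ratio -0.42). Hsp90b1, a chaperone of several Toll-like receptors, and Ctsl, a cathepsin of the endosome, had log2 ratios of 0.55 and 0.48. The other Ctsl probe set gave -0.090.

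Around PKR, 0 of 11 measured genes were at least 2-fold apart in either direction, and 4 were at least 2-fold higher in MS-1 with poly-A scaling. The count of 0 was narrow: 1 gene was at least 2-fold higher in MS-1 with median centring, with the mean over probe sets or without less specific probe sets, and 1 in SVEC4-10 with that mean. Ppp1r15a and Ppp1r15b, the phosphatase subunits that undo the action of PKR on the initiation factor eIF2, had log2 ratios of -0.99 and -0.87. The other probe set of Ppp1r15b gave -2.02. Eif2ak1, another kinase of the same substrate, had a log2 ratio of -0.84, but its 4 probe sets ranged from -0.84 to 0.28. Tarbp2, an inhibitor of PKR, had a log2 ratio of -0.57. Adar, which edits double-stranded RNA, had signals of 536 in SVEC4-10 and 365 in MS-1 (log2 ratio 0.55, up to 1.12 among its 3 probe sets). Dnajc3, an inhibitor of PKR named after its value was seen, had a log2 ratio of 0.55, although 1 of its probe sets gave 2.05.

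Of the genes through which ZBP1 acts, 3 of 9 measured were at least 2-fold higher in SVEC4-10, 1 in MS-1 and 5 in neither (2 in SVEC4-10 and 3 in MS-1 with poly-A scaling). Ripk3, the kinase that ZBP1 recruits, had signals of 924 in SVEC4-10 and 79.8 in MS-1, 11.6-fold apart. Mlkl, the pore-forming protein that RIPK3 activates, had signals of 749 in SVEC4-10 and 891 in MS-1 (log2 ratio -0.25). Casp6, a caspase that aids the ZBP1 complex in mouse cells, was 3.86-fold and Gsdmd, a pore-forming gasdermin, 2.29-fold higher in SVEC4-10. With poly-A scaling the log2 ratio of Gsdmd was 0.65. Gsdme, another gasdermin, had signals of 229 in SVEC4-10 and 754 in MS-1.

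**Figure D4:**
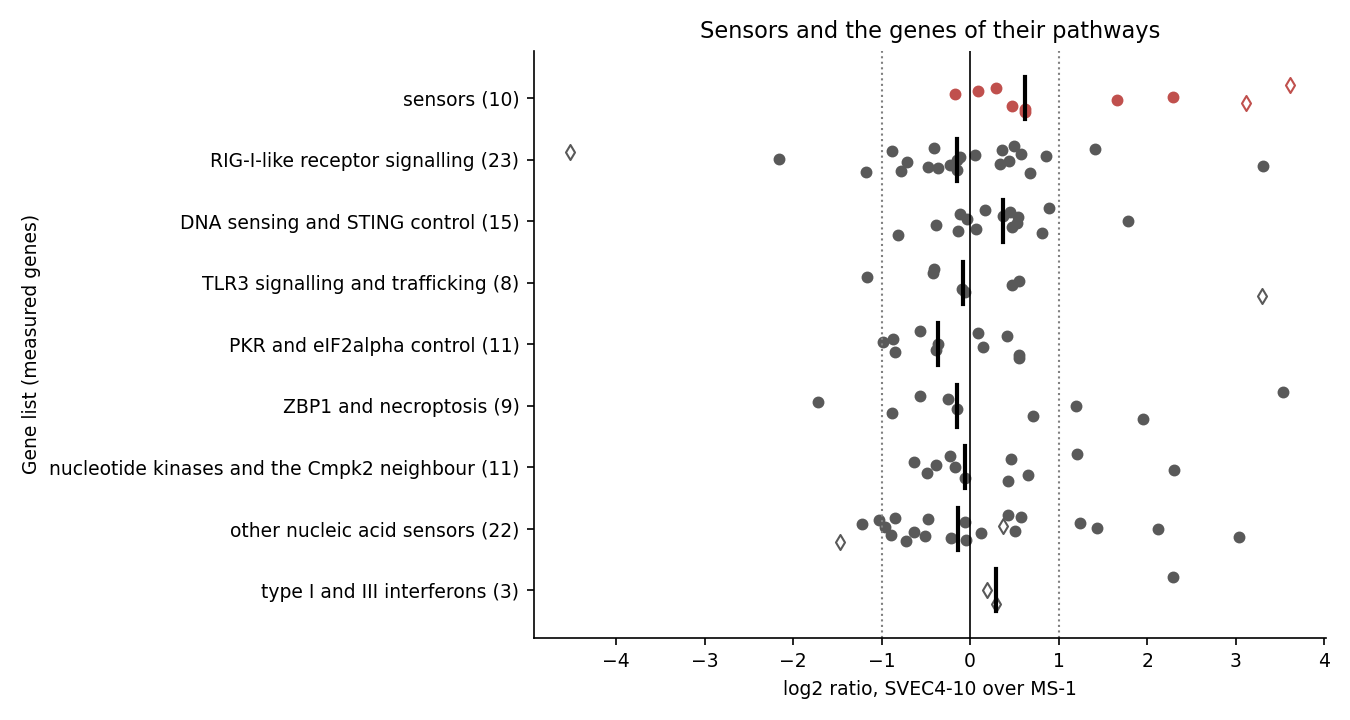
log2 ratio of SVEC4-10 over MS-1 for the 10 sensors (red) and the measured genes of 8 pathway lists (grey). Open diamonds have 1 array at background, black bars are medians and dotted lines mark 2-fold. The sensors have a median of 0.62, and the PKR list, with a median of -0.37, has 0 genes beyond 2-fold.

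Among nucleotide kinases related to CMPK2, 2 of 11 measured genes of the list were at least 2-fold higher in SVEC4-10 and 0 in MS-1 (1 in SVEC4-10 and 2 in MS-1 with poly-A scaling). Dtymk, thymidylate kinase, had signals of 1649 in SVEC4-10 and 334 in MS-1, 4.93-fold apart, with ratios from 2.07 to 2.48 among 3 probe sets. Tk2, the mitochondrial thymidine kinase, was 2.30-fold higher in SVEC4-10, with a log2 ratio of 0.66 after poly-A scaling. Dck, deoxycytidine kinase, had a log2 ratio of 0.65, but its 3 probe sets ranged from -0.18 to 1.12. Nme2, a nucleoside diphosphate kinase, had a log2 ratio of -0.63.

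Among 22 other measured nucleic acid sensors, 4 were at least 2-fold higher in SVEC4-10, 3 in MS-1 and 15 in neither (2 in SVEC4-10 and 10 in MS-1 with poly-A scaling). Ddx60, a helicase of the interferon response, had signals of 201 in SVEC4-10 and 24.6 in MS-1, 8.19-fold apart. Ifi204, a mouse DNA-binding protein of the same response, had signals of 251 in SVEC4-10 and 57.8 in MS-1. Lrrfip1 was 2.71-fold higher in SVEC4-10, but the lowest of its 3 probe sets gave a log2 ratio of 0.096. Aim2, which builds an inflammasome on DNA, was below background in SVEC4-10 and had a signal of 48.8 in MS-1, at least 2.77-fold higher there. With background doubled its log2 ratio was -0.47, within 2-fold. Named after their values were seen, Polr3b had a log2 ratio of 1.24, Polr3a -1.23 and Prkdc -1.03. The measured probe sets of Polr3b ranged from 1.23 to 1.75 and those of Polr3a from -1.23 to -0.74, within 2-fold at that end. Prkdc had 1 probe set, close to the 2-fold limit. The endosomal receptors Tlr7 and Tlr8, also named afterwards, were below background on both arrays.

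Interferon genes themselves gave little signal. Of 9 type I interferon genes found, 6 were below background on both arrays, against 30.8% of all 18194 genes. Ifnb1, interferon beta, had a signal of 18.5 in SVEC4-10, just above background, and 12.3, below it, in MS-1. Ifna1 had 19.9 in SVEC4-10 and 2.83 in MS-1, also at the edge of background. Ifnz, interferon zeta, was the exception, with signals of 125 in SVEC4-10 and 25.4 in MS-1, 4.90-fold apart at its single probe set. Many type I interferon genes are similar in sequence, so a probe set can read a relative.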

How the data were processed

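Per the labels' protocols, 6 µg of Trizol-extracted total RNA from 1 culture per line gave biotin-labelled cRNA for Affymetrix arrays. The authors deposited linear intensities, 1 for each probe set; how these were summarised is not given in the sources used here. Their 2%-trimmed mean was 150.001 for both, so a common scaling preceded deposit; it assumes equal total signal in both lines. The number of arrays limits the precision.

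Gene names came from the platform annotation, updated by gene identifier to RefSeq GRCm38.p6. Of 45101, 34958 had 1 gene (34754 matched), 932 several and 9160 none; the other 51 were controls without a gene. Listed genes that were not found are not analysed here. Background was the 95th percentile of 129 receptor and keratin-associated probe sets. Measured genes exceeded background in at least 1 line. Each was represented by its measured probe set of highest mean log2 signal, outside the cross-hybridising classes (_s_at and _x_at) where possible. Less specific probe sets were those of these classes and of the _a_at class. The error was the standard deviation of the difference between the 2 brightest measured probe sets of a gene, divided by the square root of 2. Named genes were the 10 members, up to 4 genes per list by absolute ratio, and a fixed set. The members and lists were chosen with earlier results of these data known. The steps were also run on simulated arrays with the same error for all probe sets and no variation between cultures. That run does not vouch for the ratios given here. Python 3.11.15, numpy 2.4.6 and pandas 2.3.3 were used.

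The alternatives were quantile normalization, median centring, poly-A scaling, a background doubled, left out or set to the 40th percentile of the whole array, the mean or smallest ratio over probe sets, leaving out less specific probe sets, and a 4-fold threshold.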

Additional observations from a re-analysis of the deposited data

How the results depend on the processing

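The count of sensors at least 2-fold higher in SVEC4-10 was 4 in the main setting and under 8 of the alternatives, the same 4 genes each time. It was 3 with the probe set of smallest ratio, where Dhx58 turned to -0.068, and 3 at 4-fold, where Eif2ak2 dropped out. The count higher in MS-1 was 0 throughout. The median log2 ratio of the sensors, less that of all genes, ranged from 0.33 with the smallest ratio to 0.64 with the mean over probe sets. Ratios against background moved with it: Zbp1 ranged from 2.61 with background doubled to 5.22 with no floor. Scaled to the poly-A controls, Ddx58, Tlr3 and Sting1 had ratios of -0.072, -0.25 and -0.45, and the median of all genes was -0.53. The same alternatives were applied to the pathway lists and named pathway genes after the data were seen. Of the list counts, 27 moved by over 1.5 times and 133 did not. Of the gene ratios, 24 moved by more than the error of 0.59 and 349 did not. Part of the 349 was fixed in advance, because poly-A scaling lowers every ratio by 0.54, less than the error. A gene with 1 probe set also cannot move with the mean or the smallest ratio over probe sets. The count of 349 is therefore not a measure of stability. No paired analysis was possible because each line has 1 array. The 2 Cmpk2 probe sets are of the _a_at class, so Cmpk2 has no value without the less specific ones. With 1 culture per line, the spread between cultures was not measured.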

Other observations

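Among measured genes with a promoter window, the ISRE core was found in 69 of 1467 genes (4.70%) at least 2-fold higher in SVEC4-10. It was found in 40 of 1195 genes (3.35%) at least 2-fold higher in MS-1 and in 249 of 7498 (3.32%) within 2-fold. These shares are descriptions with no test. Among the sensors with a match, Ifih1 and Eif2ak2 differed by at least 2-fold and Ddx58 did not at its brightest probe set.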
